A study of Arabidopsis thaliana with 9 samples.

Results

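Sulfate uptake and reduction were followed through 10 genes of Arabidopsis thaliana, chosen by locus identifier among the 38202 gene rows of a count table. They are the sulfate transporters SULTR1;1 (AT4G08620), SULTR1;2 (AT1G78000) and SULTR2;1 (AT5G10180), the ATP sulfurylases ATPS1 (AT3G22890) and ATPS3 (AT4G14680), and the adenylylsulfate reductases APR1 (AT4G04610), APR2 (AT1G62180) and APR3 (AT4G21990). Sulfite reductase, SIR (AT5G04590), and a serine acetyltransferase, SERAT2;1 (AT1G55920), complete the set. Leaf RNA of the ecotype Columbia was sequenced in 9 libraries, 3 labelled AgNPs (silver nanoparticles), 3 labelled Ag+ (silver ions) and 3 labelled CK. All plants shared the ecotype, the organ and 6 days in MS medium, a plant culture medium, and no mutant or transgene is named. The labels give no silver dose and no time of exposure. CK is read here as the untreated control because no other group could serve as one. The comparisons ask whether either form of silver, or the difference between the forms, was accompanied by a change in the transcripts of this pathway.

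Plants take up sulfate through root transporters, move it through the vascular tissue, and reduce it mainly in the plastids of leaf cells. ATP sulfurylase activates sulfate to adenylylsulfate, adenylylsulfate reductase converts this to sulfite with glutathione as electron donor, and sulfite reductase converts sulfite to sulfide. Sulfide is then joined to O-acetylserine, the product of serine acetyltransferase, to give cysteine, the precursor of glutathione and of the metal-binding phytochelatins. Transcripts of the root uptake transporters and of adenylylsulfate reductase are known to rise when sulfur is short. The transcription factor SLIM1 controls much of that response, and the microRNA miR395 directs cleavage of some sulfurylase and transporter transcripts.

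3 of the 10 genes hold a stretch that matches miR395 closely, and the sequences are shown because they divide the members by a known regulator of the pathway. A match is a description of the letters. RefSeq annotates 6 mature miR395 sequences of 21 bases on chromosome 1 (assembly TAIR10.1), and all 6 have the seed UGAAGUG at bases 2 to 8, written in capitals. The members a, d and e are identical, as are b, c and f. The first mature sequence comes from chr1:9363206-9363226 on the minus strand and the second from chr1:9364540-9364560 on the plus strand.
miR395a: cUGAAGUGuuugggggaacuc
miR395b: cUGAAGUGuuuggggggacuc
The sites below lie in coding sequence, and their capitals mark the bases that are not complementary to miR395a (G:U pairs count as unpaired). The site of SULTR2;1 is at chr5:3193268-3193288 (plus strand), that of ATPS1 at chr3:8113164-8113184 (plus strand) and that of ATPS3 at chr4:8414958-8414978 (minus strand). ATPS4 (AT5G43780), a sulfurylase outside the set of 10, is added for comparison, with its site at chr5:17591121-17591141 (minus strand).
SULTR2;1: AaguucUcccaaacacuucaA
ATPS1: gaguuccUccaaacUcuucaU
ATPS3: gaguuccUccaaacUcuucaU
ATPS4: gaguuccUccaaacacuucaU
The sites of ATPS1 and ATPS3 are the same 21 bases, with 3 unpaired bases, as in the transporter, against 2 in ATPS4. In the other 7 members the best site had at least 8 unpaired bases. Of 27444 protein-coding loci, 8 (0.0292%) held a site with 3 or fewer unpaired bases. The letters GAGAC, the core of the sulfur-responsive element, were searched on both strands in the 250 bases before each annotated start. They were found before 0 of the 10 members and in 25.8% of 27443 windows of that length. Sequence farther upstream was not searched, so this does not show that a member lacks the element.

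Library totals lay between 16884010 and 19876151 counts, and 19889 genes passed the filter on low counts. All 7 leaf markers were detected in every library, with summed levels of 24120 to 32740 CPM (counts scaled to the size of the library) in AgNPs, 33210 to 41220 CPM in Ag+ and 23700 to 33260 CPM in CK. Of these 7, edgeR called 0 in AgNPs against CK and in AgNPs against Ag+ (4 and 3 at an unadjusted p under 0.05). The shares called of all tested genes were 3.32% and 0.684% there. In AgNPs against Ag+ all 7 had a log2 fold change below 0, with a median of -0.43. In Ag+ against CK, where 5.57% of all tested genes were called, all 7 were above 0 and edgeR called 2. These were the antenna genes LHCB2.1 (log2 fold change 2.62, edgeR adjusted p = 0.0436) and LHCB3 (1.83, 0.0228), called in 9 and 15 of the 18 alternatives. AgNPs 1 stood apart from the other 8 libraries in the summed level of root-type transcripts. The summed level of 18 root markers, without the abundant PYK10, was 275.1, 48.18 and 35.91 CPM in AgNPs 1 to 3, 30.87, 68.44 and 52.58 CPM in Ag+ 1 to 3, and 36.13, 46.21 and 83.53 CPM in CK 1 to 3. With PYK10 the sums were 2284 to 3473 CPM in AgNPs, 2155 to 2817 CPM in Ag+ and 1922 to 2053 CPM in CK. IRT1, the root iron transporter, had 27 counts in AgNPs 1 and 2 in AgNPs 2, and was at 0 in the other 7 libraries. Some root markers had other patterns. HAK5 was highest in Ag+, at 1.06 to 5.61 CPM against 0.148 to 0.677 CPM in AgNPs and 0.398 to 0.993 CPM in CK. TIP2;3 was highest in AgNPs 2, at 0.935 CPM. NRT2.1 had 8.17 to 39.7 CPM in AgNPs, 2.40 to 3.11 CPM in Ag+ and 2.92 to 4.44 CPM in CK. Of 17 root markers tested, edgeR called 0 in each comparison. The shares called of all tested genes were 3.32% for AgNPs against CK, 5.57% for Ag+ against CK and 0.684% for AgNPs against Ag+. In these comparisons 3, 1 and 4 of the root markers had an unadjusted p under 0.05 in the edgeR test. The summed level of 10 heat-shock genes was 353.2, 1177 and 1542 CPM in AgNPs 1 to 3, 106.6, 78.78 and 316.7 CPM in Ag+ 1 to 3, and 146.2, 156.0 and 1080 CPM in CK 1 to 3, so that CK 3 stood apart from the other CK libraries. In a chi-square comparison of counts, too, CK 3 was the farthest of its group, at 64.2 and 50.6 per degree of freedom from CK 1 and CK 2, which differed by 23.7. AgNPs 1 was likewise the farthest of its group, at 36.4 and 44.6 from AgNPs 2 and AgNPs 3, which differed by 8.99. In AgNPs against Ag+ all 10 heat-shock genes had a log2 fold change above 0 and an unadjusted p under 0.05 in edgeR. The libraries of 9 did not overlap (22.1% of all tested genes). 1 was called (0.684% of all tested genes), HSFA7A (log2 fold change 1.07, edgeR adjusted p = 0.0498, called in 9 of the 18 alternatives). HSFA7A also fell in Ag+ against CK (log2 fold change -1.44, edgeR adjusted p = 0.00405), and edgeR called 0 of the 10 in AgNPs against CK (3 at an unadjusted p under 0.05). The part of these differences in the members' levels was not tested. In whole-leaf RNA, a change in the number of cells of a type cannot be told apart from a change in RNA per cell.

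No member of the sulfate uptake and reduction set passed the test in any of the 3 comparisons. 9 of the 10 genes passed the filter, and 0 of the 9 were called at an adjusted p under 0.05 in edgeR's quasi-likelihood test with Benjamini-Hochberg adjustment over all tested genes. DESeq2 and limma voom also called 0 of the 9. With the library number as a replicate block in Ag+ against CK, 0 were called over all 9 libraries. In the 6 libraries compared 1 was called, the acetyltransferase (edgeR adjusted p = 0.0148). The labels do not say that the numbers pair libraries. The background of calls over all 19889 genes was 3.32% for AgNPs against CK, 5.57% for Ag+ against CK and 0.684% for AgNPs against Ag+. At an unadjusted p under 0.05 edgeR left 1 member for AgNPs against CK, 2 for Ag+ against CK and 2 for AgNPs against Ag+. The share of all genes at that unadjusted threshold was not computed, here or for the other gene lists. The 3 libraries of each group did not overlap for 1 member in AgNPs against CK (22.6% of all genes), 1 in Ag+ against CK (23.3%) and 2 in AgNPs against Ag+ (22.1%). These counts of members without overlap were near or below their background. The median log2 fold change of the 9 members was 0.24, 0.16 and 0.05 in these comparisons, beside -0.0026, -0.0087 and -0.0134 over all tested genes. These medians rested on single libraries. For AgNPs against CK the median was 0.02 without AgNPs 1 and 0.01 without CK 2, for Ag+ against CK it was -0.15 without CK 2, and for AgNPs against Ag+ it was -0.24 without AgNPs 1. The intervals were wide enough to hold sizeable changes, so the absence of a call does not show equal levels.

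**Figure D1:**
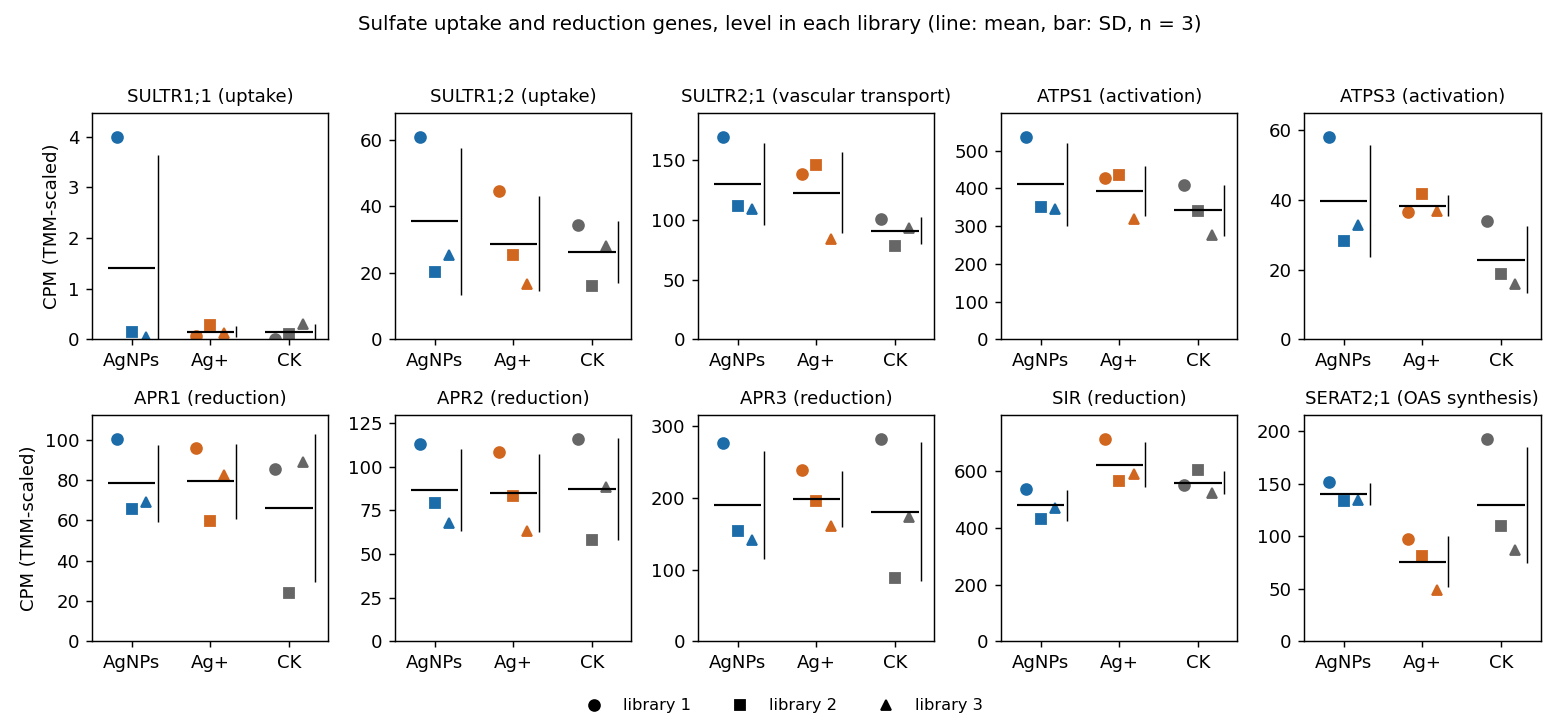
Level of the 10 genes in CPM in each library, with AgNPs on the left, Ag+ in the middle and CK on the right of each panel, symbols for the library number, a line for the group mean and a bar for the SD (n = 3). AgNPs 1 is the highest AgNPs library in every panel, and SULTR1;1 reaches 3.997 CPM there against 0 to 0.3069 CPM elsewhere.

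The members spanned a wide range of levels, and the order hardly differed between groups. On a scale of CPM per kilobase of the longest annotated transcript, ATPS1 was first in each group, with 215 ± 57.2 in AgNPs, 206 ± 34.2 in Ag+ and 179 ± 35.0 in CK (SD, n = 3). SIR followed at 144 ± 16.2 in AgNPs, 187 ± 23.9 in Ag+ and 168 ± 12.4 in CK. These neighbours overlapped in Ag+ and CK and did not overlap in AgNPs. APR3 came next, with means of 107, 111 and 101 CPM per kilobase in AgNPs, Ag+ and CK, and then the acetyltransferase, with 96.7, 52.4 and 89.6. SULTR2;1, APR2 and APR1 held the next places with means between 34.1 and 50.9 CPM per kilobase, and each overlapped its neighbour within this trio in all 3 groups. ATPS3 and the root-type transporters were last, and ATPS3 overlapped the transporter next below it in AgNPs and CK but not in Ag+.

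SULTR1;1 and SULTR1;2 encode the high-affinity transporters that bring sulfate into roots, and the first was near the floor of detection in these leaves. SULTR1;1 had 65, 3 and 1 counts in AgNPs 1 to 3, 1, 5 and 2 counts in Ag+ 1 to 3, and 0, 2 and 6 counts in CK 1 to 3. A single AgNPs library therefore held most of its reads, and the remaining 8 libraries overlapped. The 0 in CK 1 allows up to 0.149 CPM, the value of 3 counts there, from counting error alone. The gene did not pass the filter on low counts. In a fit without that filter its log2 fold change was 3.22 for AgNPs against CK, with an edgeR adjusted p of 0.401. The library with these 65 counts was the same that had high root markers, and the part of root tissue in this value was not tested.

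SULTR1;2 had 60.8, 20.4 and 25.2 CPM in AgNPs 1 to 3, 44.6, 25.2 and 16.5 CPM in Ag+ 1 to 3, and 34.4, 16.1 and 28.2 CPM in CK 1 to 3. The groups overlapped throughout, and the first library was the highest of its group in each. For AgNPs against CK the log2 fold change was 0.43 (95% interval -0.67 to 1.54, edgeR adjusted p = 0.741) and turned to -0.20 without AgNPs 1. Ag+ against CK gave 0.13 (-0.97 to 1.24, edgeR adjusted p = 0.925), and AgNPs against Ag+ gave 0.30 (-0.81 to 1.40, edgeR adjusted p = 0.811). Changes of more than 2.90-fold upward in AgNPs lay outside the interval.

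SULTR2;1, a low-affinity transporter of the vascular tissue that moves sulfate between organs, was the member whose libraries separated AgNPs from CK. It had 169.6, 111.9 and 109.2 CPM in AgNPs 1 to 3, 138.8, 145.9 and 83.9 CPM in Ag+ 1 to 3, and 100.8, 78.4 and 93.6 CPM in CK 1 to 3. All AgNPs libraries were above all CK libraries, while Ag+ 3 fell within the CK range. The log2 fold change was 0.52 for AgNPs against CK (SE 0.24, interval -0.01 to 1.05, edgeR adjusted p = 0.309) and 0.28 without AgNPs 1. For Ag+ against CK it was 0.43 (interval -0.10 to 0.97, edgeR adjusted p = 0.369), and for AgNPs against Ag+ it was 0.08 (interval -0.45 to 0.61, edgeR adjusted p = 0.896).

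The ATP sulfurylases ATPS1 and ATPS3 are plastid enzymes that activate sulfate, and ATPS1 carried most of the family's transcripts. Its share of the summed level of the 4 ATPS genes, per length, was 74.9 ± 0.599% in AgNPs, 77.4 ± 5.77% in Ag+ and 72.2 ± 4.67% in CK (SD, n = 3). ATPS1 had 535.7, 350.0 and 344.3 CPM in AgNPs 1 to 3, 426.4, 434.3 and 317.7 CPM in Ag+ 1 to 3, and 408.7, 340.3 and 275.2 CPM in CK 1 to 3. All 3 groups overlapped. Its log2 fold change was 0.26 for AgNPs against CK (interval -0.22 to 0.74, edgeR adjusted p = 0.610) and 0.20 for Ag+ against CK (interval -0.28 to 0.68, edgeR adjusted p = 0.687). For AgNPs against Ag+ it was 0.06 (interval -0.42 to 0.54, edgeR adjusted p = 0.917).

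ATPS3 had the highest fold change of the tested members against CK in AgNPs and in Ag+, without reaching a call. It had 58.0, 28.1 and 32.7 CPM in AgNPs 1 to 3, 36.4, 41.7 and 36.8 CPM in Ag+ 1 to 3, and 33.9, 18.8 and 15.8 CPM in CK 1 to 3. Every Ag+ library was above every CK library, while 2 AgNPs libraries were below CK 1. The log2 fold change was 0.79 for AgNPs against CK (SE 0.33, interval 0.05 to 1.53, unadjusted p = 0.0385, edgeR adjusted p = 0.257). It was 0.74 for Ag+ against CK (SE 0.33, interval 0.00 to 1.48, unadjusted p = 0.0489, edgeR adjusted p = 0.257) and 0.05 for AgNPs against Ag+ (interval -0.68 to 0.78, edgeR adjusted p = 0.961). Both comparisons against CK share the same CK libraries. Single libraries moved these values, to 0.41 without AgNPs 1 and 1.19 without CK 1 for AgNPs against CK, and to 1.15 without CK 1 for Ag+ against CK. Its share of the family's level was 6.94 ± 0.970% in AgNPs, 7.47 ± 0.605% in Ag+ and 4.66 ± 1.34% in CK. The transcripts of ATPS1 and ATPS3 share exact runs of up to 50 bases, shorter than the 150 bp reads.

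The adenylylsulfate reductases APR1, APR2 and APR3 catalyse the step generally taken to control the flux through the pathway, and they varied far more between libraries of a group than between groups. Their summed level was 490.4, 298.2 and 277.7 CPM in AgNPs 1 to 3, 443.7, 338.4 and 306.6 CPM in Ag+ 1 to 3, and 483.7, 169.9 and 349.8 CPM in CK 1 to 3. The highest library of each group was its first, and the lowest of all 9 was CK 2. APR1 had 100.3, 65.5 and 69.1 CPM in AgNPs 1 to 3, 96, 59.6 and 82.3 CPM in Ag+ 1 to 3, and 85.5, 23.7 and 88.9 CPM in CK 1 to 3. APR2 had 113.0, 79.2 and 67.6 CPM in AgNPs 1 to 3, 108.3, 83.4 and 63.4 CPM in Ag+ 1 to 3, and 116.0, 57.9 and 88.2 CPM in CK 1 to 3. For APR1 the first AgNPs and Ag+ libraries exceeded the CK range and the others fell within it, and for APR2 both silver groups lay within it. APR3 had 277.1, 153.5 and 141.0 CPM in AgNPs 1 to 3, 239.4, 195.4 and 160.9 CPM in Ag+ 1 to 3, and 282.2, 88.3 and 172.7 CPM in CK 1 to 3. Here too CK 1 was the highest and CK 2 the lowest of the 9 libraries, so both silver groups lay within the CK range.

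The log2 fold changes of AgNPs against CK were 0.24 for APR1 (interval -0.73 to 1.21), -0.01 for APR2 (interval -0.67 to 0.64) and 0.07 for APR3 (interval -0.84 to 0.98), with edgeR adjusted p-values of 0.845, 0.989 and 0.956. Those of Ag+ against CK were 0.26 (interval -0.71 to 1.23), -0.04 (interval -0.70 to 0.62) and 0.13 (interval -0.78 to 1.04), with edgeR adjusted p-values of 0.808, 0.966 and 0.906. For AgNPs against Ag+ they were -0.02, 0.03 and -0.06, with edgeR adjusted p-values of 0.990, 0.976 and 0.959. The intervals against CK reached about as far below 0 as above it for APR2 and APR3. The coefficient of variation in CK was 55.5% for APR1, 33.3% for APR2 and 53.7% for APR3, beside 7.35% for SIR. Within the family APR3 held the largest share of the summed level per length, at 55.6 ± 3.10% in AgNPs, 57.4 ± 2.79% in Ag+ and 56.0 ± 4.59% in CK. The longest exact run shared by a pair of reductases was 41 bases, in APR1 and APR3.

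SIR, the plastid sulfite reductase, varied least among the 3 CK libraries of all tested members. It had 537.3, 430.6 and 471.5 CPM in AgNPs 1 to 3, 713.8, 565.7 and 590.0 CPM in Ag+ 1 to 3, and 553.1, 603.6 and 522.2 CPM in CK 1 to 3. All AgNPs libraries lay below all Ag+ libraries, and CK overlapped both. The log2 fold change of AgNPs against Ag+ was -0.38 (SE 0.14, interval -0.68 to -0.07, unadjusted p = 0.0197, edgeR adjusted p = 0.242). That of AgNPs against CK was -0.22 (interval -0.52 to 0.08, edgeR adjusted p = 0.467), and that of Ag+ against CK was 0.16 (interval -0.15 to 0.46, edgeR adjusted p = 0.616). The bounds of both intervals against CK correspond to ratios between 0.695 and 1.37.

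SERAT2;1 encodes the plastid serine acetyltransferase, which supplies the carbon skeleton of cysteine, and it was the member in which the silver forms stood farthest apart. It had 151.9, 133.6 and 135.0 CPM in AgNPs 1 to 3, 97.2, 81.6 and 49.1 CPM in Ag+ 1 to 3, and 192.7, 110.0 and 86.9 CPM in CK 1 to 3. Every AgNPs library exceeded every Ag+ library, and among the CK libraries CK 1 was above the AgNPs range, CK 2 between the ranges and CK 3 within the Ag+ range. The log2 fold change of AgNPs against Ag+ was 0.88 (SE 0.31, interval 0.18 to 1.59, unadjusted p = 0.0196, edgeR adjusted p = 0.242). That of Ag+ against CK was -0.77 (SE 0.31, interval -1.48 to -0.07, unadjusted p = 0.0348, edgeR adjusted p = 0.215), and that of AgNPs against CK was 0.11 (interval -0.59 to 0.81, edgeR adjusted p = 0.911). Without CK 1 the value of Ag+ against CK was -0.37, and without CK 3 it was -1.02. Matched by library number, a pairing that the labels do not state, the ratio of Ag+ to CK was 0.504, 0.742 and 0.565, below 1 each time. With the library number as a replicate block, Ag+ against CK had an edgeR adjusted p of 0.063 over all 9 libraries and of 0.0148 in the 6 libraries compared, which is a call. The second of these fits was chosen after the data had been seen. In the family of 5 acetyltransferase genes its share of the level per length was 47.2 ± 2.56% in AgNPs, 33.8 ± 8.12% in Ag+ and 49.2 ± 12.1% in CK.

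**Figure D2:**
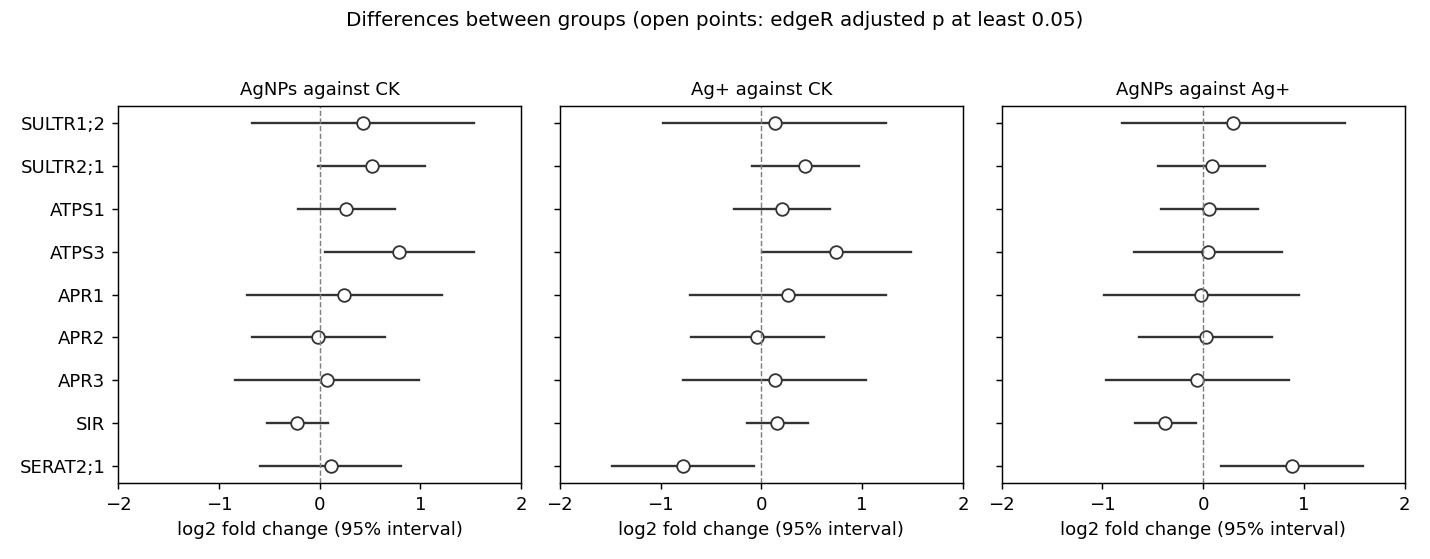
Log2 fold changes of the 9 tested members (points) with 95% intervals (lines) for AgNPs against CK, Ag+ against CK and AgNPs against Ag+. All points are open, since no edgeR adjusted p was under 0.05, and the intervals that leave out 0 are those of ATPS3 against CK in both silver groups, of SERAT2;1 in Ag+ against CK, and of SIR and SERAT2;1 in AgNPs against Ag+.

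Much of the variation among these genes ran across libraries of the same group. AgNPs 1 was the highest AgNPs library for all 9 tested members, while it was the highest for 42.9% of all tested genes. CK 1 was the highest CK library for 7 of the 9 (30.7% of all tested genes), and CK 2 the lowest for 5 of the 9 (31.2%), among them the 3 reductases. Ag+ 1 was the highest Ag+ library for 6 members (36.6%), and Ag+ 3 the lowest for 6 (35.6%). AgNPs 1 was also the library with high root markers, and the part of root tissue in the members' levels was not tested.

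**Figure D3:**
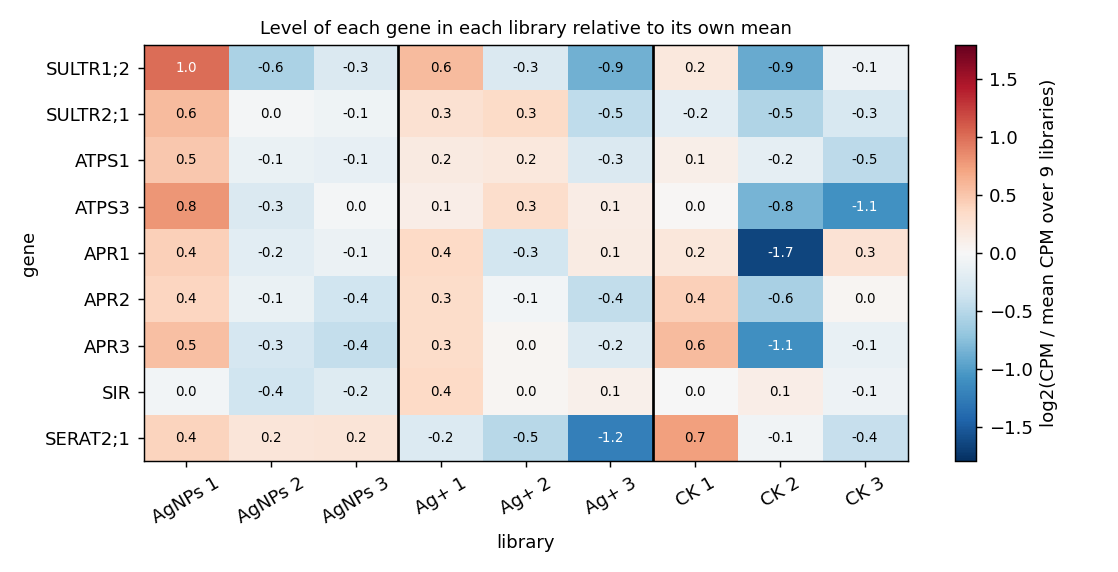
Level of each tested member in each library as log2 of its CPM over its mean of all 9 libraries, with AgNPs, Ag+ and CK from left to right. AgNPs 1 is red or near 0 for every gene, CK 2 is dark blue for APR1 and APR3, and SIR stays between -0.36 and 0.37.

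Likeness of pattern was measured as Pearson's r of log2(CPM + 1) over the 9 libraries, which share groups and depth, and is given as a description. The mean of the 3 reductases ran with SULTR1;2 at r = 0.846 and showed little likeness to SIR (r = 0.115) or to SERAT2;1 (r = 0.289). The genes most like the reductase mean among all those tested were DOF2.4 (r = 0.916), FAB1B (r = 0.908), ATRAD17 (r = 0.904), AT1G70420 (r = 0.894) and RCK (r = 0.892). The 3 most like SULTR1;2 were AT4G16892 (r = 0.917), FMO1 (r = 0.898) and ADT4 (r = 0.898). Those most like SULTR2;1 were AT1G23200 (r = 0.972), AT5G06970 (r = 0.961) and PYD1 (r = 0.958). Among the members, ATPS1 followed this transporter at r = 0.833, SULTR1;2 at r = 0.784, ATPS3 at r = 0.743 and APR3 at r = 0.671. ATPS1 and ATPS3 share a close miR395 match with it, while SULTR1;2 and APR3 have none. Any part of the microRNA in this order was not tested.

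Some other genes of the pathway were called against CK. Of 41 further genes of sulfate transport, assimilation, its branches and its regulation, 35 were tested. In AgNPs against CK 3 rose, 3 fell and 29 were not called, with a median log2 fold change of 0.03. Of all tested genes 3.32% were called there. In Ag+ against CK 3 rose, 2 fell and 30 were not called, with a median of 0.08, beside 5.57% called of all tested genes. In AgNPs against Ag+ edgeR called 0 of the 35 (9 at an unadjusted p under 0.05, 4 called by DESeq2 and 0 by limma voom), with a median of -0.08. The share called of all tested genes was 0.684%. Both silver groups share the CK libraries as reference.

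Among 9 further transporters, SULTR3;2 fell in both silver groups. It had 4.61, 4.68 and 5.33 CPM in AgNPs 1 to 3, 6.20, 6.06 and 6.74 CPM in Ag+ 1 to 3, and 14.4, 13.7 and 15.1 CPM in CK 1 to 3. The silver libraries were all far below the CK libraries. The log2 fold change was -1.57 in AgNPs (SE 0.14, edgeR adjusted p = 0.000784) and -1.19 in Ag+ (SE 0.14, edgeR adjusted p = 0.00197), and the call held in all 18 alternatives of each comparison. SULTR3;1, a transporter of the chloroplast envelope, rose in both, with 3.14, 3.64 and 2.98 CPM in AgNPs 1 to 3, 4.11, 3.56 and 2.70 CPM in Ag+ 1 to 3, and 1.39, 0.797 and 1.59 CPM in CK 1 to 3. All silver libraries were above all CK libraries, with log2 fold changes of 1.36 in AgNPs (SE 0.30, edgeR adjusted p = 0.0395) and 1.45 in Ag+ (SE 0.30, edgeR adjusted p = 0.0234). The call was lost without any 1 of AgNPs 1, 2 or 3, Ag+ 1 or 2, or CK 1 or 2 for AgNPs (edgeR adjusted p 0.0543 to 0.151), and without any 1 of Ag+ 1 or 2 or CK 1 or 2 for Ag+ (0.0569 to 0.0822). Fits of the 6 libraries compared also lost both calls (0.093 and 0.053).

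SULTR2;2, a vascular low-affinity transporter, rose in Ag+ against CK and had a log2 fold change of 0.05 in AgNPs against CK, with 19.7, 14.4 and 13.3 CPM in AgNPs 1 to 3, 32.1, 28.8 and 26.3 CPM in Ag+ 1 to 3, and 18.1, 11.8 and 15.8 CPM in CK 1 to 3. Its log2 fold change was 0.93 in Ag+ against CK (SE 0.20, edgeR adjusted p = 0.0247) and -0.88 in AgNPs against Ag+ (edgeR adjusted p = 0.0794). The Ag+ call was lost without Ag+ 1, Ag+ 2 or CK 2 (edgeR adjusted p 0.0825 to 0.0873). The vacuolar exporter SULTR4;2 had a log2 fold change of 1.15 in Ag+ against CK (edgeR adjusted p = 0.0768), which passed the threshold with the replicate block (0.00936). SULTR1;3, a transporter of the phloem, had the highest log2 fold change of the 35 genes against CK in both silver groups and was not called, at 2.15 in AgNPs (SE 0.63, edgeR adjusted p = 0.114) and 1.89 in Ag+ (SE 0.63, edgeR adjusted p = 0.134). It had 7.75, 10.7 and 9.38 CPM in AgNPs 1 to 3, 8.48, 5.55 and 9.26 CPM in Ag+ 1 to 3, and 0.794, 0.626 and 4.81 CPM in CK 1 to 3. All silver libraries were above all CK libraries, of which CK 3 was the highest. It was called in 4 of the 18 alternatives in each comparison, among them DESeq2, limma voom and the fit without CK 3 (edgeR adjusted p = 0.000675 in AgNPs and 0.000922 in Ag+). With the replicate block SULTR3;3 was called too, at a log2 fold change of -0.78 in Ag+ against CK (edgeR adjusted p = 0.0203, against 0.0894 without the block).

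In assimilation proper, 11 further genes were tested. SERAT3;2, a minor serine acetyltransferase, rose in Ag+, with 4.31, 2.46 and 1.97 CPM in AgNPs 1 to 3, 6.40, 5.44 and 6.74 CPM in Ag+ 1 to 3, and 2.08, 2.45 and 2.40 CPM in CK 1 to 3 (log2 fold change 1.42 in Ag+ against CK, SE 0.29, edgeR adjusted p = 0.0204). The call was lost without any 1 of the Ag+ libraries, CK 1 or CK 2 (edgeR adjusted p 0.0563 to 0.0701). OASB, a plastid O-acetylserine thiol-lyase that forms cysteine, fell in AgNPs, with 58.9, 46.8 and 44.7 CPM in AgNPs 1 to 3, 75.1, 78.1 and 79.2 CPM in Ag+ 1 to 3, and 69.5, 72.0 and 78.0 CPM in CK 1 to 3 (log2 fold change -0.55 in AgNPs against CK, SE 0.12, edgeR adjusted p = 0.0452). This call was lost without any 1 of the libraries other than AgNPs 1 (edgeR adjusted p 0.0667 to 0.184), with upper-quartile factors (0.0542) and in the 6 libraries compared (0.111). The sulfurylases outside the set were not called, with log2 fold changes of -0.20 in AgNPs and -0.41 in Ag+ for ATPS2, and of 0.06 in AgNPs and -0.70 in Ag+ for ATPS4, against CK. In Ag+ against CK, ATPS4 had the opposite sign to ATPS3, though neither was called. Any part of miR395 in these values was not tested.

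Of 12 branch genes, the adenylylsulfate kinases APK1 and APK2, which divert adenylylsulfate from reduction to the sulfation of metabolites such as glucosinolates, rose in AgNPs. APK1 had 63.7, 65.5 and 73.8 CPM in AgNPs 1 to 3, 46.9, 52.7 and 54.5 CPM in Ag+ 1 to 3, and 45.2, 34.5 and 43.9 CPM in CK 1 to 3. APK2 had 113.6, 155.1 and 169.6 CPM in AgNPs 1 to 3, 92.7, 80.6 and 91.7 CPM in Ag+ 1 to 3, and 80.6, 74.4 and 69.6 CPM in CK 1 to 3. For both kinases the AgNPs libraries were above all others. Against CK, AgNPs gave a log2 fold change of 0.72 for APK1 (SE 0.13, edgeR adjusted p = 0.0196) and 0.96 for APK2 (SE 0.15, edgeR adjusted p = 0.00984). The call of APK1 was lost without AgNPs 2, AgNPs 3 or CK 2 (edgeR adjusted p 0.0717 to 0.0857) and in the 6 libraries compared (0.0629), and that of APK2 without AgNPs 2 (0.0522). CYSC1, the mitochondrial beta-cyanoalanine synthase, which uses cysteine to bind cyanide, fell in both silver groups, with 336.5, 344.5 and 335.4 CPM in AgNPs 1 to 3, 459.5, 360.4 and 322.8 CPM in Ag+ 1 to 3, and 669.0, 697.0 and 496.7 CPM in CK 1 to 3. Its log2 fold change was -0.87 in AgNPs (SE 0.17, edgeR adjusted p = 0.0223) and -0.71 in Ag+ (SE 0.17, edgeR adjusted p = 0.0379), with no overlap between silver and CK libraries. The first call was lost without AgNPs 2, AgNPs 3, CK 1 or CK 2 (edgeR adjusted p 0.0573 to 0.0954) and the second without AgNPs 2 or 3, Ag+ 2 or 3, or CK 1 or 2 (0.0640 to 0.139) and in the 6 libraries compared (0.0761).

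**Figure D4:**
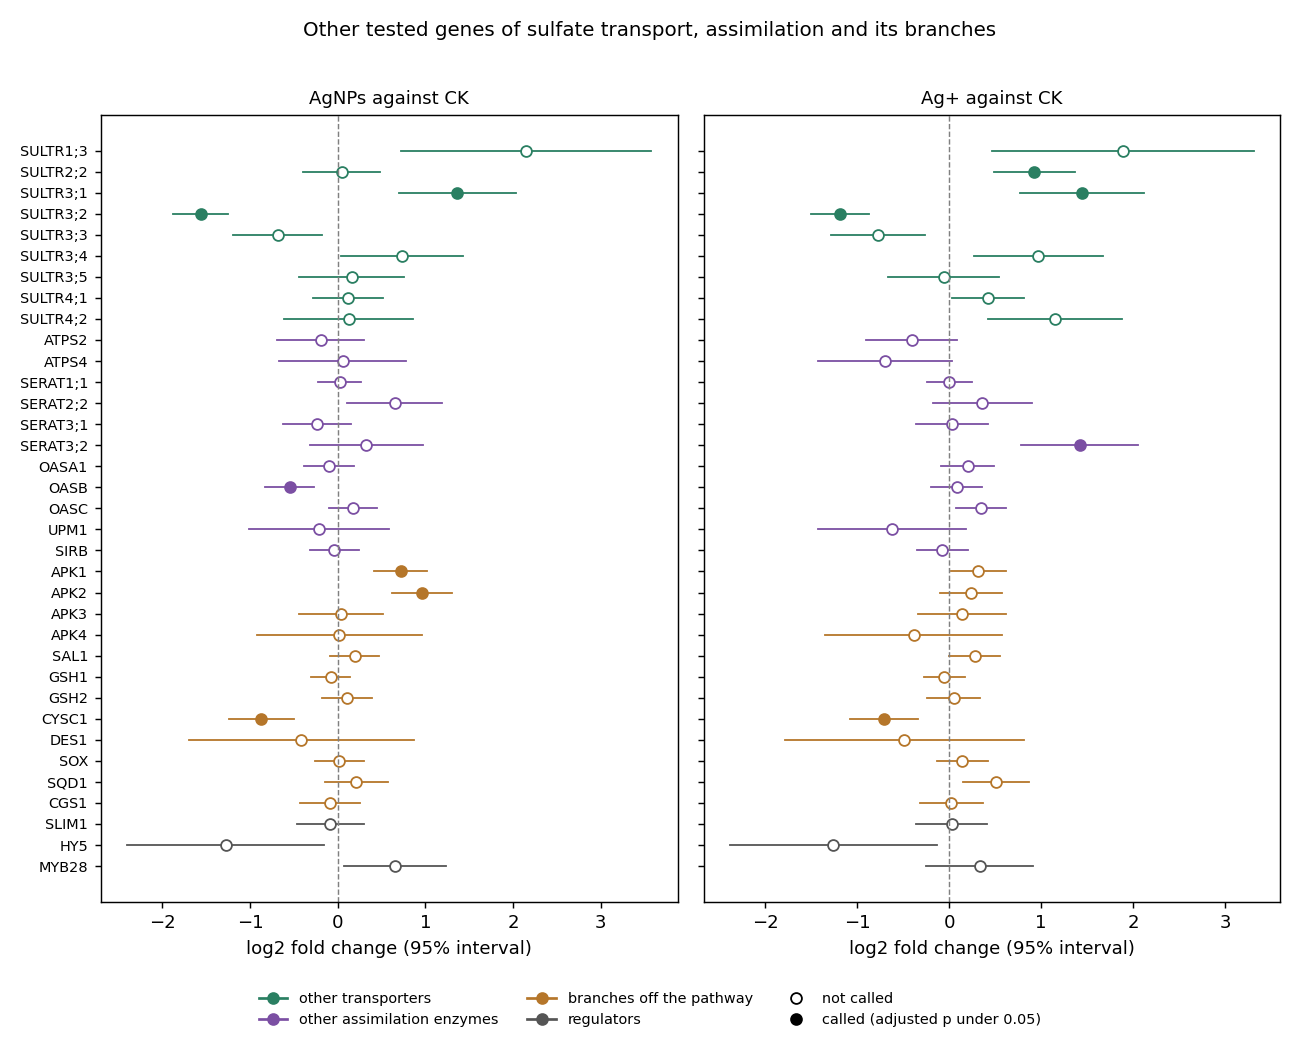
Log2 fold changes with 95% intervals of the 35 other tested genes of sulfate transport, assimilation, its branches and regulation, for AgNPs against CK (left) and Ag+ against CK (right). Filled points were called by edgeR at an adjusted p under 0.05, 6 in AgNPs and 5 in Ag+, and SULTR3;2, the lowest in AgNPs, has log2 fold changes of -1.57 and -1.19.

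Of 9 listed regulators, 3 were tested and 0 were called in any comparison. The shares called of all tested genes were 3.32% for AgNPs against CK, 5.57% for Ag+ against CK and 0.684% for AgNPs against Ag+. In these comparisons 2, 1 and 0 of the regulators had an unadjusted p under 0.05 in edgeR. SLIM1, the transcription factor of the sulfur response, had log2 fold changes of -0.08 in AgNPs and 0.03 in Ag+ against CK, with edgeR adjusted p-values of 0.872 and 0.957. HY5 had -1.28 in AgNPs and -1.26 in Ag+ (edgeR adjusted p = 0.228 and 0.207). Its CK libraries ranged from 4.62 CPM in CK 1 to 20.5 CPM in CK 3 and overlapped both silver groups. MYB28 had 0.65 in AgNPs and 0.33 in Ag+ (edgeR adjusted p = 0.235 and 0.560). The 6 loci of miR395 were near 0 in these libraries and were not tested. MIR395A had 1 count in all, in Ag+ 1. MIR395B had 1 count in AgNPs 3, 2 in Ag+ 1 and 1 in Ag+ 2, and MIR395E had 2 counts in AgNPs 3, 4 in each of Ag+ 2 and Ag+ 3 and 1 in CK 1. MIR395C, MIR395D and MIR395F had 0 counts throughout, so these libraries give no comparison of the microRNA beside its targets.

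Some markers of sulfur deficiency rose in Ag+. Of 9 tested with edgeR, 3 rose, 0 fell and 6 were not called in Ag+ against CK, 0 were called in AgNPs against CK (2 at an unadjusted p under 0.05), and 1 fell in AgNPs against Ag+. The shares called of all tested genes were 5.57%, 3.32% and 0.684%. In Ag+ against CK 8 were above 0 and 1 below (median log2 fold change 1.54), and in AgNPs against CK 5 were above and 4 below (0.05). In AgNPs against Ag+ all 9 were below 0 (-1.20), 5 of them without overlap of libraries (22.1% of all genes). DESeq2 called SDI1 (adjusted p = 0.0371) and BGLU28 (0.00314) in AgNPs against CK, and SDI1 (0.00145) and GGCT2;1 (5.26e-05) as lower in AgNPs against Ag+. SDI1, a repressor of glucosinolate synthesis, had 3.57 to 5.84 CPM in AgNPs, 10.6 to 18.6 CPM in Ag+ and 0.797 to 3.07 CPM in CK (log2 fold change 3.06 in Ag+ against CK, edgeR adjusted p = 0.00545). BGLU28, a glucosidase that can release sulfur from glucosinolates, had 0.935 to 3.01 CPM in AgNPs, 9.11 to 11.1 CPM in Ag+ and 0.256 to 0.626 CPM in CK (log2 fold change 4.38 in Ag+ against CK, edgeR adjusted p = 0.000833). BGLU28 was also the gene that fell in AgNPs against Ag+, by 2.49 on the log2 scale (edgeR adjusted p = 0.0350), a call lost without AgNPs 2 or 3 or any 1 of the Ag+ libraries (0.108 to 0.161). The other gene that rose in Ag+ was GGCT2;1, an enzyme of glutathione breakdown, at a log2 fold change of 1.54 (edgeR adjusted p = 0.0467), a call lost without any 1 of the libraries other than CK 3 (0.0544 to 0.149) and in the 6 libraries compared (0.0956). LSU1, a small protein gene induced by sulfur shortage, had a log2 fold change of 3.14 in Ag+ against CK with an edgeR adjusted p of 0.0558. Any difference between these markers and the members was not tested.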

How the data were processed

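Total leaf RNA was depleted of ribosomal RNA and sequenced as paired 150 bp reads, per the labels' protocols, in 3 AgNPs, 3 Ag+ and 3 CK libraries. The submitters' processing notes name HISAT2 and TAIR10. How reads were counted, whether by strand and on which annotation, is not given in the sources used here. Each gene's deposited value was a raw count, which the authors had not normalized. Members overlapping an annotated neighbour (APR1, APR2, APR3, ATPS3 and SERAT2;1) could hold its reads. The same holds for the called pathway genes SULTR2;2, SULTR3;2, SERAT3;2 and OASB.

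All 9 libraries entered 1 edgeR fit (edgeR 4.0.16, R 4.3.3; filterByExpr, TMM, robust quasi-likelihood test, group as the only term). Two-sided p-values were Benjamini-Hochberg adjusted over 19889 genes, and genes under 0.05 were called. CPM used TMM-scaled totals. SE is the log2 fold change over the root of F, and intervals are 95%. The scripts were tested on simulated counts. The alternatives, 18 per comparison, were DESeq2 1.42.0 size factors and Wald test, limma 3.58.1 voom, upper-quartile factors, no filter, the 6 libraries compared, replicate blocks, each library left out, and CK 3 and AgNPs 1 left out together.

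The members and gene lists were chosen with earlier results of these data known. Named are all members, every called gene of the wider pathway, SLIM1, SULTR4;2, ATPS2, ATPS4, the miR395 loci, the genes most alike, and SDI1, LSU1 and BGLU28 among the deficiency markers. SULTR1;3, SULTR3;3, HY5, MYB28, GGCT2;1, LHCB2.1, LHCB3, HSFA7A and the root markers named singly were named after their values were seen. Sequences are from RefSeq TAIR10.1, matched by locus. The labels speak of pooled RNA and of no separate cultures, so p-values measure only the spread between these libraries, which may be technical. Replicate pairs differed by 8.99 to 64.2 in chi-square per degree of freedom, so no library was a duplicate within counting noise. The replicate numbers come from the titles. Deviations of same-numbered libraries correlated at 0.12, 0.19 and 0.23 for Ag+ and CK. They correlated at -0.08, -0.11 and -0.02 for AgNPs and CK, and at -0.09, -0.21 and 0.12 for AgNPs and Ag+. Differently numbered libraries of Ag+ and CK lay between -0.18 and 0.05. The highest value of all, 0.29, was between Ag+ 2 and AgNPs 1. Deviations from a group mean depend on each other, and the labels do not say that numbers pair libraries, so pairing was not established. Counting intervals and floors cover counting error only.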

Additional observations from a re-analysis of the deposited data

How the results depend on the processing

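Precision was limited by 3 libraries per group and by the spread between them, not by depth alone: tested members had 282 to 11145 counts per library, and SULTR1;1 had too few to compare. No member was called in any alternative except SERAT2;1, where the replicate block in the 6 libraries of Ag+ against CK called 1 member. Leaving out 1 library in turn called 0 members in each comparison, while the median log2 fold change of members ranged from 0.01 to 0.51 for AgNPs against CK, -0.15 to 0.38 for Ag+ against CK and -0.24 to 0.17 for AgNPs against Ag+. Without both CK 3 and AgNPs 1 the median for AgNPs against CK was -0.15. The cause was not tested where a value moved.

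The count of genes called over the whole table was 1447 for AgNPs against CK, 1901 for Ag+ against CK and 868 for AgNPs against Ag+ with DESeq2's Wald test, beside 660, 1108 and 136 with edgeR. Without CK 3 and AgNPs 1 it was 1603, 2003 and 1276. In the 6 libraries compared it was 351 for AgNPs against CK and 408 for AgNPs against Ag+, and limma voom called 50 for AgNPs against Ag+. The replicate block gave 236 for AgNPs against Ag+, and in the 6 libraries compared 195 for AgNPs against CK and 357 for AgNPs against Ag+. With 1 library left out, the counts ranged from 224 to 809 for AgNPs against CK, 419 to 1372 for Ag+ against CK and 0 to 444 for AgNPs against Ag+.

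Of the other pathway genes, 3 were called for AgNPs against CK in the 6 libraries compared and 1 there with the replicate block. For Ag+ against CK, DESeq2 called 9, the 6 libraries 3, the block in them 8, and the fit without CK 3 and AgNPs 1 called 10. For AgNPs against Ag+, DESeq2 called 4, the 6 libraries 1, the replicate block 2 over all libraries and 1 in the 6, and the fit without CK 3 and AgNPs 1 called 4. With 1 library left out, 1 to 7, 1 to 9 and 0 to 4 were called in AgNPs against CK, Ag+ against CK and AgNPs against Ag+. The labels state no pairing by number, for pairs with AgNPs or for Ag+ and CK. In AgNPs against CK the replicate block over all libraries called SULTR3;3 (edgeR adjusted p = 0.0407) and MYB28 (0.0449) and lost SULTR3;1 (0.0642) and OASB (0.0647).

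Signs turned only among values that were not called. Without CK 3 and AgNPs 1, the log2 fold change of AgNPs against CK was -0.15 for SULTR1;2, -0.11 for ATPS1, -0.33 for APR3, -0.17 for SERAT2;1, -0.12 for SULTR2;2, -0.0274 for SERAT3;2, -0.22 for SULTR4;2 and -0.17 for ATPS4, that of Ag+ against CK was -0.0788 for SLIM1, and that of AgNPs against Ag+ was -0.34 for SULTR1;2, -0.15 for SULTR2;1, -0.18 for ATPS1, -0.33 for ATPS3 and -0.21 for APR2. APR2 in AgNPs against CK was 0.0070 with limma voom and 0.0065 with the block in 6 libraries, and ATPS4 was -0.0157 and -0.0208. ATPS3 in AgNPs against Ag+ was -0.03 with limma voom and -0.0462 with the replicate block, and APR1 there was 0.0169 in the 6 libraries, 0.0034 with the block and 0.0171 with the block in 6.

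With 1 library left out, AgNPs against CK ranged from -0.15 to 0.52 for APR1, -0.25 to 0.24 for APR2, -0.30 to 0.54 for APR3, -0.10 to 0.51 for SERAT2;1, -0.0579 to 0.54 for SERAT3;2, -0.20 to 0.71 for SULTR1;2, -0.14 to 0.19 for SULTR2;2, -0.14 to 0.39 for SULTR4;2, -0.43 to 0.33 for ATPS4 and -0.18 to 0.11 for SLIM1. Ag+ against CK ranged from -0.16 to 0.51 for APR1, -0.29 to 0.22 for APR2, -0.22 to 0.61 for APR3, -0.33 to 0.41 for SULTR1;2 and -0.10 to 0.22 for SLIM1. AgNPs against Ag+ ranged from -0.24 to 0.14 for APR1, -0.21 to 0.24 for APR2, -0.43 to 0.11 for APR3, -0.18 to 0.17 for ATPS1, -0.33 to 0.24 for ATPS3, -0.34 to 0.76 for SULTR1;2, -0.15 to 0.22 for SULTR2;1, -0.24 to 0.0563 for SULTR3;1, -0.12 to 0.28 for SULTR3;3 and -0.0189 to 0.52 for ATPS2.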
